A study of Mus musculus with 18 samples.

Results

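Solute carriers are the membrane proteins that move amino acids, sugars, ions, metals, vitamins and metabolites into, out of and within cells, and their gene symbols start with Slc and a family number. The genes described here were those with such a symbol and a mean of at least 2 TPM (transcript abundance corrected for length and scaled to the same sum in every library) over all 18 granulosa cell libraries. In all, 380 genes had an Slc symbol, of which 186 reached the limit and 194 did not. Of 11 carriers that the rule left out by name, among them the glucose, lactate and iron carriers Slc2a1, Slc16a3 and Slc40a1, 9 were above the limit, which gave 177 genes of the 24963 genes measured. The mean level that chose the genes took KO and WT libraries together, so the KO level of a gene near the limit bore on whether it was kept.

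Granulosa cells, the somatic cells of the follicle that surround the oocyte, were collected by follicle puncture from mice 21 to 27 days old that had been given 5 IU eCG, then 5 IU hCG 46 h later, and were killed 8 h after hCG. PRKO KO mice lack both isoforms of progesterone receptor (PGR), the nuclear receptor that hCG induces in these cells, PRAKO KO mice lack the PGR-A isoform and PRBKO KO mice lack PGR-B. Each of the 3 knockout (KO) groups was set against wildtype (WT) mice from its own line, and the alleles were not limited to granulosa cells. Each group had 3 libraries, each of RNA pooled from 3 mice, so the spread between libraries is that between pools, and a difference in cell make-up cannot be told apart from a difference in RNA per cell. Each strain had its own table, so tests were made within a strain first.

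Solute carriers are grouped into families by sequence and mostly by what they carry. Some amino acid carriers of the Slc7 family, called light chains, work as pairs with a heavy chain, Slc3a2, which brings them to the cell surface. The Slc25 family sits mainly in the inner mitochondrial membrane and links the cytosol with the mitochondrion. Cumulus cells, those next to the oocyte, are known to take up amino acids and pass them to the oocyte, which they feed through gap junctions.

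The 177 genes came from 43 families. By symbol, 5 of them are not carriers (Slc9a3r1 and Slc9a3r2, scaffold proteins, Slc4a1ap and Slc7a6os, named for a binding partner and an opposite strand neighbour, and Slc36a1os, a non-coding RNA), which leaves 172 classed as carriers. Among the 172 is Slc10a4l, which RefSeq lists as a transcribed pseudogene with a non-coding record. Amino acid carriers (32 genes) and mitochondrial carriers (36 genes) held 37.5% and 31.6% of the summed TPM of the set. The other classes were sugar carriers (30 genes), carriers of organic ions, vitamins and nucleosides (28), of ions and protons (21), of metals (20), of lipids (3) and of phosphate (2). The median member had 9.82 TPM, 93 members were under 10 TPM and 8 reached 100 TPM, and the 10 highest held 54.7% of the sum. The members together made up between 0.997% and 1.16% of the protein-coding TPM of a library. Just inside the limit of 2 TPM were Slc38a9 (mean 2.00 TPM), Slc24a5 (2.10 TPM) and Slc7a2 (2.10 TPM), and just outside were Slc4a11 (1.98 TPM), Slc10a2 (1.98 TPM) and Slc25a29 (1.97 TPM). Of these 6 genes, Slc25a29, a mitochondrial carrier of basic amino acids, had 0.561, 0.344 and 0.565 TPM in PRKO KO, against 2.01, 1.79 and 1.98 TPM in PRKO WT. It had 0.460, 0.406 and 0.767 TPM in PRAKO KO, against 2.24, 2.31 and 1.88 TPM in PRAKO WT. In PRBKO KO it had 3.88, 3.73 and 5.44 TPM, against 2.04, 2.09 and 2.95 TPM in PRBKO WT, so it was lower in all KO libraries of PRKO and PRAKO and higher in all those of PRBKO.

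Granulosa markers, of which 0 of 14 were at 0 throughout, summed to 3772 to 4100 TPM in PRKO KO, against 3577 to 3667 TPM in PRKO WT, to 4125 to 4696 TPM in PRAKO KO, against 2720 to 2913 TPM in PRAKO WT, and to 3965 to 4812 TPM in PRBKO KO, against 3450 to 4661 TPM in PRBKO WT. In PRKO 0 of the 14 passed higher and 2 lower at a limma adjusted p of 0.05, beside 2.11% and 7.85% of all genes. In PRBKO 2 passed higher and 0 lower, beside 3.27% and 0.209%. In PRAKO 9 of the 14 passed higher and 1 lower, beside 30% and 4.51% of all genes. The median change of these markers in PRAKO was 0.27 above that of all genes. Their part in the rises of solute carrier genes in PRAKO was not tested. Oocyte markers summed to 151 to 177 TPM in PRKO KO, against 195 to 249.99 TPM in PRKO WT. Of these markers 3 of 8 were lower at 0.05, beside 7.85% of all genes, and 0 of 8 were at 0 throughout. Their part in the falls in PRKO was not tested either. The Pgr transcript did not check the isoform lost, since it was at 1.49 to 2.67 TPM in PRKO KO, against 1.73 to 2.09 TPM in PRKO WT, at 8.36 to 12.4 TPM in PRAKO KO, against 0.829 to 1.10 TPM in PRAKO WT, and at 2.62 to 4.88 TPM in PRBKO KO, against 1.41 to 6.24 TPM in PRBKO WT. Protein-coding genes held 38.2%, 46.0% and 57.0% of TPM in PRKO KO, PRAKO KO and PRBKO KO, against 41.1%, 39.7% and 45.7% in the WT of the same strains. Over the solute carrier genes, the median KO to WT change on the log2 scale came to −0.13 (PRKO), 0.20 (PRAKO) and 0.21 (PRBKO), beside −0.10, 0.22 and 0.22 over all genes tested. Changes are therefore also given relative to the median of all genes where this bears on a call. With median-of-ratios size factors the all-gene medians came to 0.01, 0.02 and −0.01.

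A gene was called at a limma adjusted p of at most 0.01 and a change of at least 1 on the log2 scale. In PRKO 5 of 176 members tested were called, all of them lower in KO, against a background of 2.14% of all 13910 genes tested (1.82% lower and 0.316% higher). In PRAKO 5 of 177 were called, 3 lower and 2 higher in KO, against 2.05% of all genes tested (1.21% lower and 0.841% higher). In PRBKO 0 of 177 were called, against 0.133% of all genes (0.0907% higher and 0.0419% lower), while 58 members had an unadjusted p under 0.05 in limma (53 higher and 5 lower), a share of which the all-gene value was 31.1%. Without WT replicate 2 the PRAKO count was 3. The shares of members called, 2.84% in PRKO and 2.82% in PRAKO, lay near those of all genes.

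Slc25a33, the carrier that brings pyrimidine nucleotides into mitochondria, was the member that fell most clearly. It lies on mouse chromosome 4 (GRCm38.p6, chr4:149744036-149774267). In PRKO KO it had 10.3, 9.40 and 8.60 TPM, against 35.4, 33.7 and 48.4 TPM in PRKO WT. In PRAKO KO it had 9.61, 11.6 and 10.6 TPM, against 45.8, 38 and 47.3 TPM in PRAKO WT. The groups were far apart in both strains, with log2 fold changes of −1.98 ± 0.15 (SE, limma adjusted p = 0.000429) in PRKO and −1.99 ± 0.11 (limma adjusted p = 2.17e-05) in PRAKO. In PRBKO KO it had 31.1, 27.3 and 26 TPM, against 38, 43.9 and 40.3 TPM in PRBKO WT, which also did not overlap. That difference of −0.53 ± 0.11 had a limma adjusted p of 0.0418 and passed only the limit of 0.05, and it was −0.76 with size factors (adjusted p = 0.0566).

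The stretch before the transcript start of Slc25a33 is shown because this gene changed most clearly, that of Slc7a11 because it holds a paired motif, and that of Slc29a4 because it rose most. Each is the 250 bases before the start in RefSeq (GRCm38.p6), read 5′ to 3′ on the gene's strand, from chr4:149774268-149774517 (minus), chr3:50443614-50443863 (minus) and chr5:142701851-142702100 (plus). Capitals mark matches to motifs searched on both strands, which were ACANNNTGT (the core of the steroid hormone response element), TGATGCAA (the C/EBP-ATF response element) and TGACNNNGC (the core of the antioxidant response element).
Slc25a33: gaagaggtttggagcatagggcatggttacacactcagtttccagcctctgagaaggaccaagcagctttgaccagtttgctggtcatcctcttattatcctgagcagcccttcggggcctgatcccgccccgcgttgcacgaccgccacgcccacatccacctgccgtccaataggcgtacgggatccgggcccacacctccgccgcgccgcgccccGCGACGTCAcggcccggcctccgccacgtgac
Slc7a11: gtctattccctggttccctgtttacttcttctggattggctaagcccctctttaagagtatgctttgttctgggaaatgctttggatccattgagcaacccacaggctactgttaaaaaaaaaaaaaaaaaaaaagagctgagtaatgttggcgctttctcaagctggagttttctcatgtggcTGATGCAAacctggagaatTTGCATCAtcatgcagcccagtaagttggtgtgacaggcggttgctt
Slc29a4: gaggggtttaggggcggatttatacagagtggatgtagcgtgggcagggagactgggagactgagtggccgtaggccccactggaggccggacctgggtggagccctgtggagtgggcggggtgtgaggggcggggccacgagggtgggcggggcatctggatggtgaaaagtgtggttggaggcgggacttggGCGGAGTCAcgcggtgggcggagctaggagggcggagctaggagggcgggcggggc
The Slc7a11 stretch held TGATGCAA from 66 to 59 bases before the start and the same motif on the opposite strand from 47 to 40 bases before it. The Slc25a33 and Slc29a4 stretches held 1 antioxidant element core each. Of the 186 RefSeq windows of 300 bases that 136 members had (250 before and 50 after a start), 2.69% held TGATGCAA, 20.4% held TGACNNNGC and 3.76% held ACANNNTGT on either strand, against 0.89%, 12.4% and 6.85% of all 32851 windows. No window of Slc38a4 or Slc22a17 held any of the 3, and none was at hand for Slc16a6. A match is a description of letters and no test of binding was made.

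**Figure D1:**
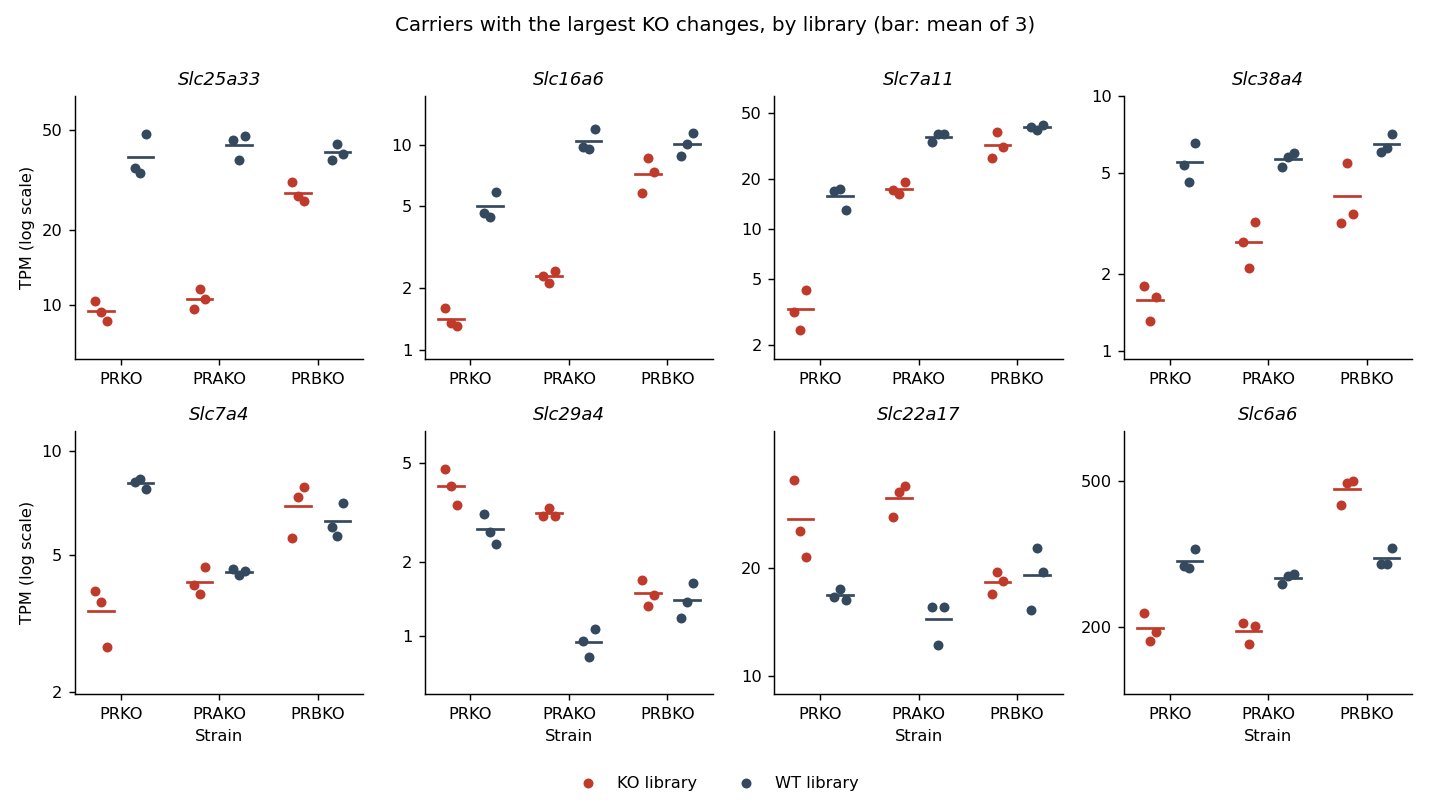
TPM on a log axis for the 7 members called in PRKO or PRAKO and for Slc6a6, in each strain, with KO libraries left of WT libraries, a point per library and a bar at the mean of 3. Slc25a33 was at 8.60 to 11.6 TPM in the KO libraries of PRKO and PRAKO, against 33.7 to 48.4 TPM in their WT libraries, and at 26 to 31.1 TPM in PRBKO KO.

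Slc16a6, a member of the monocarboxylate carrier family that exports ketone bodies from liver in zebrafish, also fell in both strains. It had 1.59, 1.36 and 1.31 TPM in PRKO KO, against 4.65, 4.45 and 5.91 TPM in PRKO WT, and 2.28, 2.12 and 2.43 TPM in PRAKO KO, against 9.78, 9.54 and 11.9 TPM in PRAKO WT. No KO library reached the lowest WT library of its strain. The log2 fold changes were −1.51 ± 0.13 (limma adjusted p = 0.000805) in PRKO and −1.97 ± 0.11 (limma adjusted p = 3.14e-05) in PRAKO. In PRBKO KO it had 5.79, 8.58 and 7.32 TPM, against 8.81, 10.1 and 11.3 TPM in PRBKO WT (−0.46 ± 0.16, limma adjusted p = 0.104). The other 4 tested Slc16 members were not lower in any strain at an adjusted p of 0.05, and 2 of them, Slc16a11 and Slc16a13, which lie 375 bases apart on chromosome 11, were higher in PRAKO KO. Of these, Slc16a11 did not pass with any of the 3 scalings (adjusted p between 0.182 and 0.199) or without KO replicate 3, KO replicate 4, WT replicate 1 or WT replicate 2 (between 0.0550 and 0.0929). Slc16a6 overlaps Arsg, a protein-coding gene at a mean of 1.09 TPM, and the lncRNA Gm45916.

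Slc7a11, the light chain of the exchanger that imports cystine for glutathione synthesis in return for glutamate, had the largest fall in PRKO. It had 3.18, 2.48 and 4.33 TPM in PRKO KO, against 16.9, 17.5 and 13 TPM in PRKO WT. In PRAKO KO it had 17.2, 16.3 and 19.1 TPM, against 33.5, 37.1 and 37.6 TPM in PRAKO WT. All KO libraries were under all WT libraries in both strains, with log2 fold changes of −2.11 ± 0.19 (limma adjusted p = 0.000950) and −1.02 ± 0.08 (limma adjusted p = 0.000193). The PRAKO change lay close to the fold limit, and it fell under it without KO replicate 3 (−0.97), WT replicate 2 (−0.999) or WT replicate 3 (−0.99). In PRBKO KO Slc7a11 had 27.0, 38.3 and 31.1 TPM, against 41.2, 39.8 and 42.3 TPM in PRBKO WT (−0.36 ± 0.13, limma adjusted p = 0.114).

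The heavy chain Slc3a2, which pairs with Slc7a11, did not pass in any strain. It had 316, 281 and 286 TPM in PRKO KO, against 340, 344 and 392 TPM in PRKO WT (−0.28, with a 95% interval from −0.52 to −0.05, limma adjusted p = 0.132). It averaged 311 ± 10.7 TPM in PRAKO KO and 336 ± 16 TPM in PRAKO WT, and 490 ± 30.5 TPM in PRBKO KO and 388 ± 24.5 TPM in PRBKO WT (SD, n = 3 each). Slc7a8, another partner of Slc3a2 that carries neutral amino acids, was the highest of all members. It had 556, 475 and 536 TPM in PRKO KO, against 675, 676 and 752 TPM in PRKO WT. These groups did not overlap, but the change of −0.43 ± 0.11 missed the limit of 0.05 (limma adjusted p = 0.0529), and the values were 606 ± 22.4 TPM in PRAKO KO and 629 ± 35.8 TPM in PRAKO WT. The other 3 light chains of the set, Slc7a5, Slc7a6 and Slc7a7, did not pass in any strain, with log2 fold changes between −0.22 and 0.30.

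**Figure D2:**
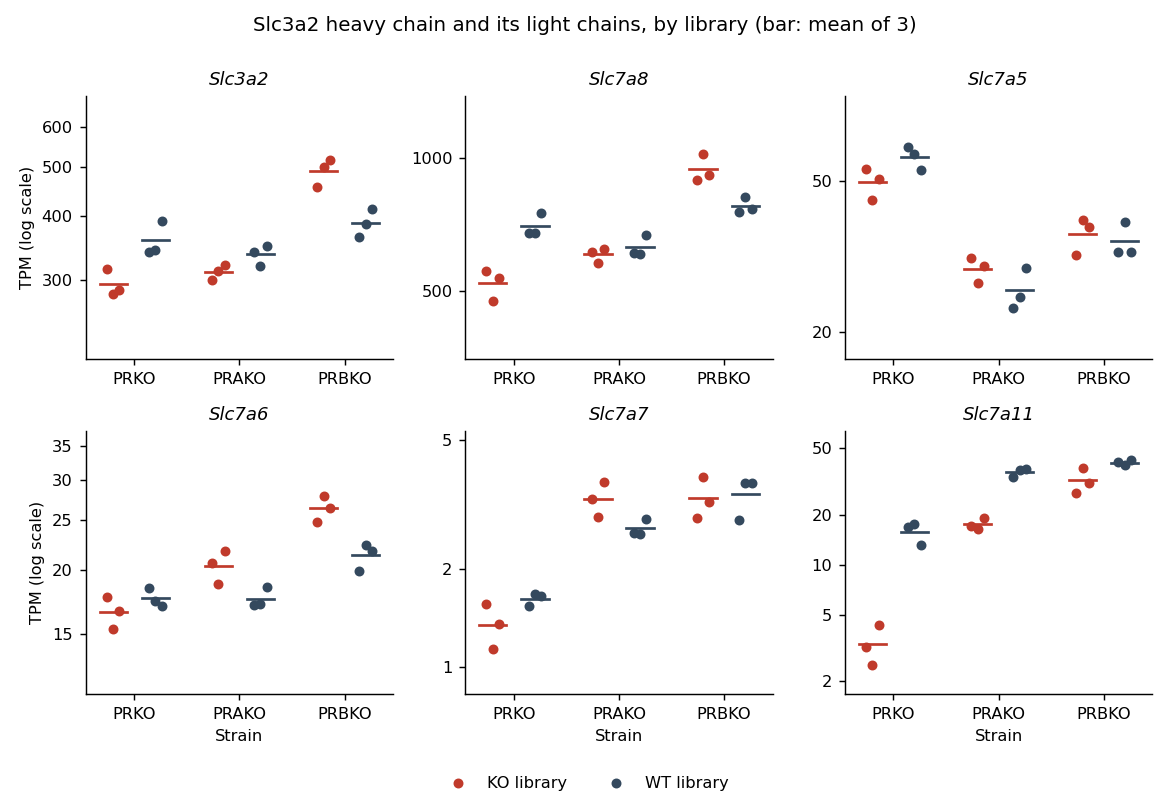
TPM on a log axis for the heavy chain Slc3a2 and 5 light chains that pair with it, in each strain, with KO libraries left of WT libraries, a point per library and a bar at the mean of 3. Slc7a11 was at 2.48 to 4.33 TPM in PRKO KO, against 13 to 17.5 TPM in PRKO WT, while Slc3a2 was at 281 to 316 TPM in PRKO KO, against 340 to 392 TPM in PRKO WT.

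Slc38a4, a sodium-coupled carrier of neutral amino acids, had 1.80, 1.31 and 1.62 TPM in PRKO KO, against 5.38, 4.63 and 6.58 TPM in PRKO WT (−1.53 ± 0.15, limma adjusted p = 0.00126). In PRAKO KO it had 2.68, 2.12 and 3.22 TPM, against 5.29, 5.76 and 6 TPM in PRAKO WT. This change of −0.97 ± 0.14 had a limma adjusted p of 0.00285 and fell just short of the fold limit, and it was −1.16 and called with size factors and also passed without KO replicate 4 (−1.10) or WT replicate 1 (−1.02). In PRBKO KO it had 3.19, 5.49 and 3.45 TPM, against 6.03, 6.27 and 7.09 TPM in PRBKO WT, again with all KO libraries lower, but the change of −0.65 ± 0.19 did not pass (limma adjusted p = 0.0768, and 0.0479 with size factors). Of its 4 listed transcripts NM_027052 held 75.8% of the TPM and NM_001358060 held 23.8%. The second had 0.124 ± 0.105 TPM in PRKO KO and 2.07 ± 0.576 TPM in PRKO WT, and 0.0503 ± 0.0714 TPM in PRAKO KO and 1.49 ± 0.658 TPM in PRAKO WT (SD, n = 3 each). The first had 1.45 ± 0.192 TPM in PRKO KO and 3.43 ± 0.461 TPM in PRKO WT, and transcripts of a gene share reads, so these splits are estimates and were not tested.

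Slc7a4, which resembles the cationic amino acid carriers but has no settled substrate, fell in PRKO. It had 3.93, 3.65 and 2.71 TPM in PRKO KO, against 8.15, 8.29 and 7.76 TPM in PRKO WT (−1.14 ± 0.13, limma adjusted p = 0.00235). The libraries did not overlap, but the call needed every library except KO replicate 1, since the change was −0.998 without KO replicate 3 and the adjusted p lay between 0.0103 and 0.0132 without KO replicate 2 or any WT replicate. In PRAKO KO it had 4.08, 3.84 and 4.61 TPM, against 4.54, 4.38 and 4.49 TPM in PRAKO WT, which overlapped. It averaged 6.93 ± 1.19 TPM in PRBKO KO and 6.25 ± 0.709 TPM in PRBKO WT (SD, n = 3 each).

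The 2 members called higher were both in PRAKO and both belong to families of organic cation and nucleoside carriers. Slc29a4, a monoamine carrier of the plasma membrane, had 3.04, 3.29 and 3.06 TPM in PRAKO KO, against 0.958, 0.828 and 1.07 TPM in PRAKO WT (1.33 ± 0.12, limma adjusted p = 0.000359). It was low in all libraries, had 4.72, 4.03 and 3.40 TPM in PRKO KO, against 3.12, 2.63 and 2.35 TPM in PRKO WT (0.50 ± 0.15, limma adjusted p = 0.0815), and with size factors the PRKO change was 0.60 with an adjusted p of 0.0395. Slc22a17, known as a receptor for the iron-binding protein lipocalin 2, had 27.6, 32.6 and 33.8 TPM in PRAKO KO, against 15.5, 12.2 and 15.5 TPM in PRAKO WT (1.10 ± 0.12, limma adjusted p = 0.000734). Its change was under the fold limit with size factors (0.89), quantile normalization (0.91) or values rescaled to protein-coding genes (0.89), and without WT replicate 2 (0.98). In PRKO KO Slc22a17 had 35, 25.3 and 21.5 TPM, against 16.6, 17.5 and 16.2 TPM in PRKO WT (0.66 ± 0.17, limma adjusted p = 0.0545). In PRBKO it averaged 18.3 ± 1.33 TPM in KO and 19.1 ± 3.77 TPM in WT (SD, n = 3 each), and the libraries overlapped.

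Smaller changes were counted at a limma adjusted p of at most 0.05 with no fold limit. In PRKO 30 of 176 members passed (17%), 26 lower and 4 higher, against 9.96% of all genes (7.85% lower and 2.11% higher). In PRAKO 65 of 177 passed (36.7%), 55 higher and 10 lower, against 34.5% of all genes (30% higher and 4.51% lower). With size factors the PRAKO split was 28 higher and 27 lower and the PRKO split 11 higher and 22 lower, so directions of small changes depended on the scaling, and 38 of the 65 PRAKO members and 26 of the 30 PRKO members still passed. Shares of all genes with size factors or without a library were not counted, here or by class below. Leaving out a library gave between 20 and 36 members in PRKO, where the count was 20 without WT replicate 1, and between 38 and 99 in PRAKO, where it was 38 without KO replicate 4, 41 without WT replicate 1 and 99 without WT replicate 3. KO and WT libraries did not overlap for 73 members in PRKO (41.5%, against 31.9% of all genes), 92 in PRAKO (52%, against 51.3%) and 65 in PRBKO (36.7%, against 34.8%). Over both KO lines without PGR-A, 9 members passed lower in PRKO and in PRAKO and did not pass higher in PRBKO (Slc25a33, Slc16a6, Slc7a11, Slc38a4, Slc25a28, Slc30a9, Slc45a4, Slc33a1 and Slc8b1), Slc6a6 passed lower in both and higher in PRBKO, and 3 passed higher in PRKO and PRAKO (Slc7a1, Slc27a3 and Slc37a2). No member passed in opposite directions in PRKO and PRAKO. The share of all genes that passed in both strains was not counted, so these shared counts have no background beside them. Of the 9, Slc33a1 missed the limit in PRAKO without any 1 of 5 libraries, all but WT replicate 3 (adjusted p between 0.0609 and 0.119). In PRBKO, Slc25a28 had 98.4 ± 9.47 TPM in KO and 73.8 ± 8.95 TPM in WT (SD, n = 3 each), Slc30a9 had 39.1 ± 4.51 TPM in KO and 31.2 ± 1.83 TPM in WT, and the log2 changes of Slc8b1 and Slc45a4 were 0.38 and 0.27. These 4 were above 0 but did not pass (limma adjusted p between 0.0783 and 0.196), and the libraries of Slc25a28 and Slc30a9 did not overlap.

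Among amino acid carriers, 7 of 32 passed lower and 1 higher in PRKO, 3 lower and 6 higher in PRAKO, and 1 higher in PRBKO. Of all genes 7.85% passed lower and 2.11% higher in PRKO, 4.51% lower and 30% higher in PRAKO, and 0.209% lower and 3.27% higher in PRBKO. With size factors the class had 9 lower and 4 higher in PRAKO and 2 lower and 0 higher in PRBKO. The 7 were Slc7a11, Slc38a4, Slc7a4, Slc6a6, Slc38a5, Slc66a2 and Slc43a3, the last of which is known to carry purine bases and not amino acids. The median change of the class, less that of all genes, came to −0.09 (PRKO), −0.05 (PRAKO) and 0.00 (PRBKO). Slc6a6, the taurine carrier, was among the most abundant members. It had 219, 184 and 194 TPM in PRKO KO, against 294, 291 and 327 TPM in PRKO WT, and 206, 180 and 201 TPM in PRAKO KO, against 263, 277 and 279 TPM in PRAKO WT. All KO libraries were lower in both strains (−0.61 ± 0.10, limma adjusted p = 0.0101, and −0.48 ± 0.07, limma adjusted p = 0.00329), although the PRKO p was 0.0525 without KO replicate 3. In PRBKO KO it had 431, 494 and 498 TPM, against 298, 297 and 329 TPM in PRBKO WT, so here all KO libraries were higher (0.62 ± 0.10, limma adjusted p = 0.0213). With size factors the PRBKO rise was 0.38 (adjusted p = 0.0539).

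Slc7a1, the main carrier of arginine and lysine, ran the other way from Slc7a11. It had 38.7, 32.1 and 36.2 TPM in PRKO KO, against 21.6, 20.4 and 25 TPM in PRKO WT (0.66 ± 0.11, limma adjusted p = 0.00977), and 26.6, 26.5 and 27.7 TPM in PRAKO KO, against 16, 16.1 and 19.7 TPM in PRAKO WT (0.63 ± 0.09, limma adjusted p = 0.00291). In both strains the lowest KO library was above the highest WT library. With size factors the changes were 0.77 and 0.43. In PRBKO the groups were 22.3 ± 2.32 TPM in KO and 19.2 ± 0.462 TPM in WT (SD, n = 3 each, limma adjusted p = 0.228). Slc38a5, a carrier of glutamine and glycine, had 17.5 ± 0.423 TPM in PRKO KO and 26.6 ± 2.35 TPM in PRKO WT (−0.59 ± 0.08, limma adjusted p = 0.00588), but 33.1 ± 4.93 TPM in PRAKO KO and 34.1 ± 2.05 TPM in PRAKO WT.

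**Figure D3:**
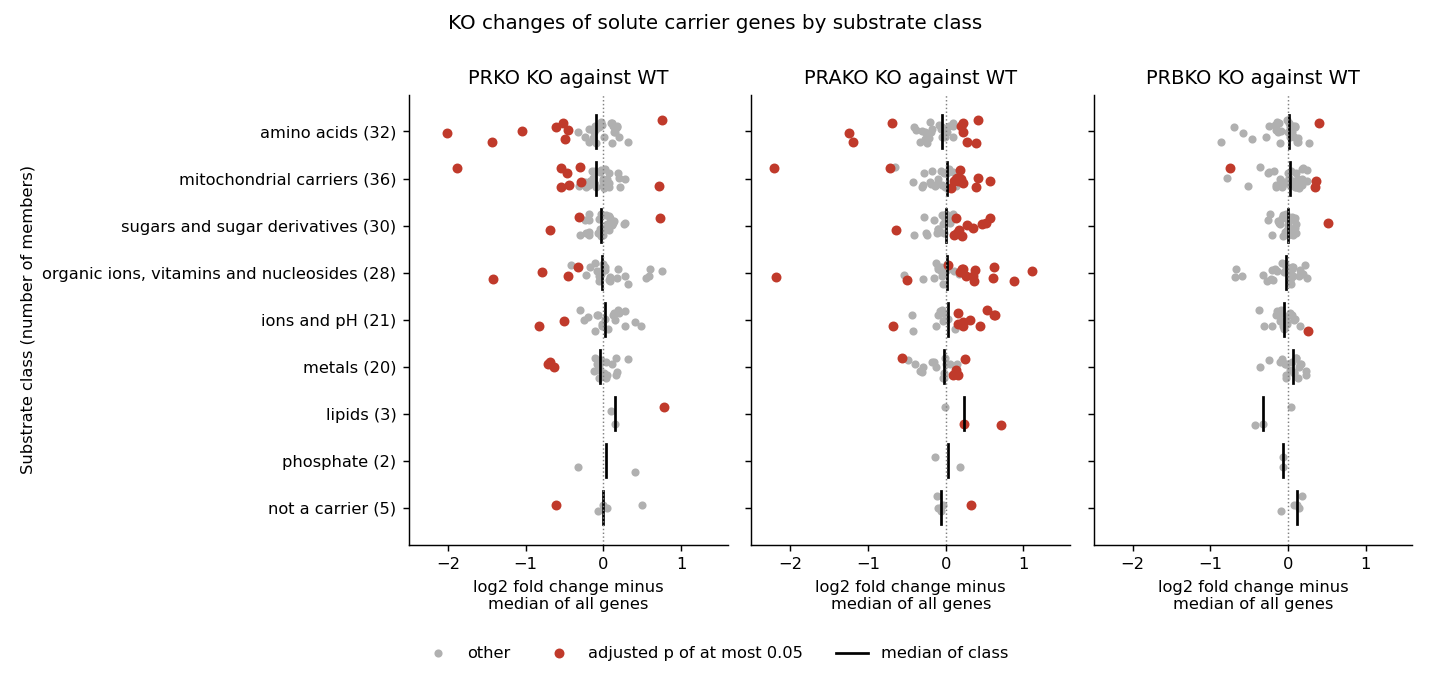
Log2 fold change of each member, KO over WT, minus the median of all genes tested, by substrate class in each strain, with members at a limma adjusted p of at most 0.05 in red and a bar at the class median. Class medians lay within 0.10 of 0 for the 6 classes with at least 20 members in every strain, and single genes, such as Slc7a11 at −2.01 in PRKO and Slc25a33 at −2.21 in PRAKO, stood far from them.

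Of the 36 mitochondrial carriers, 7 passed lower and 1 higher in PRKO, 2 lower and 11 higher in PRAKO, and 2 higher and 1 lower in PRBKO. Over all genes the shares were 7.85% lower and 2.11% higher in PRKO, 4.51% and 30% in PRAKO, and 0.209% and 3.27% in PRBKO. With size factors the class had 5 lower and 3 higher in PRAKO and 1 lower and 0 higher in PRBKO. Beside Slc25a33, the member that passed lower in both PRKO and PRAKO was Slc25a28, mitoferrin 2, which brings iron into mitochondria. It had 75.7, 66.7 and 67.0 TPM in PRKO KO, against 105, 107 and 116 TPM in PRKO WT (−0.64 ± 0.08, limma adjusted p = 0.00437), and 39.5, 43.3 and 47.7 TPM in PRAKO KO, against 66.4, 54.7 and 63.7 TPM in PRAKO WT (−0.49 ± 0.10, limma adjusted p = 0.0104). Neither pair of groups overlapped. Slc25a37, mitoferrin 1, best known from red cell precursors, had 16.4, 13.8 and 12.7 TPM in PRKO KO, against 8.27, 9.52 and 9.54 TPM in PRKO WT (0.62 ± 0.11, limma adjusted p = 0.0170). It missed the limit of 0.05 without KO replicate 2, WT replicate 1 or WT replicate 2 (adjusted p between 0.0507 and 0.0694). Erythroid markers summed to 184 to 319 TPM in PRKO KO, against 55.2 to 135 TPM in PRKO WT. Of the 6 on the list 3 were tested, and 2 of them were higher at an adjusted p of 0.05, beside 2.11% of all genes. The part of these markers in the Slc25a37 change was not tested. They also summed to 223 to 359 TPM in PRBKO KO, against 75.4 to 207 TPM in PRBKO WT, where Slc25a37 had 13.7 ± 3.55 TPM in KO and 10.5 ± 1.22 TPM in WT (SD, n = 3 each) and did not pass (limma adjusted p = 0.243).

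Slc25a30, a mitochondrial carrier first described in kidney, was the sixth most abundant member. It had 254, 247 and 280 TPM in PRAKO KO, against 151, 147 and 155 TPM in PRAKO WT (0.78 ± 0.07, limma adjusted p = 0.000238), a rise that was 0.57 with size factors. It had 139, 122 and 129 TPM in PRKO KO, against 149, 155 and 155 TPM in PRKO WT (−0.23 ± 0.08, limma adjusted p = 0.124), where no KO library reached the WT range. In PRBKO KO it had 215, 250 and 246 TPM, against 155, 151 and 169 TPM in PRBKO WT (0.58 ± 0.10, limma adjusted p = 0.0273, and 0.34 with size factors at an adjusted p of 0.0614). In PRAKO the carriers that supply oxidative phosphorylation changed less than Slc25a30. Slc25a3, the phosphate carrier, averaged 300.4 ± 17.9 TPM in PRKO KO and 323 ± 28.3 TPM in PRKO WT, and 359 ± 20.7 TPM in PRAKO KO and 277 ± 11.2 TPM in PRAKO WT (SD, n = 3 each, limma adjusted p = 0.00755 in PRAKO), a rise that did not pass with size factors (0.16, adjusted p = 0.141). In PRBKO Slc25a3 averaged 446 ± 41.1 TPM in KO and 325 ± 26.7 TPM in WT (SD, n = 3 each) and did not pass. The ADP-ATP exchangers Slc25a4 and Slc25a5 had changes between −0.28 and 0.39, of which Slc25a4 in PRAKO (0.29) passed, but not with size factors (0.08, adjusted p = 0.582). Slc25a25, the calcium-regulated ATP-magnesium carrier, had 6.33, 4.96 and 5.61 TPM in PRKO KO, against 9.10, 9.55 and 8.50 TPM in PRKO WT (−0.64 ± 0.10, limma adjusted p = 0.00969).

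Among ion carriers 2 of 21 passed lower in PRKO, beside 7.85% of all genes. In PRAKO 9 passed higher and 1 lower, where 30% of all genes passed higher and 4.51% lower. With size factors the class had 5 higher and 3 lower in PRAKO and 2 higher and 2 lower in PRKO. Slc8b1, the sodium-calcium exchanger of mitochondria, had 7.35, 6.17 and 6.24 TPM in PRKO KO, against 12.6, 12.8 and 13.3 TPM in PRKO WT (−0.92 ± 0.09, limma adjusted p = 0.00107), and 6.63, 7.03 and 7.23 TPM in PRAKO KO, against 10.4, 9.49 and 9.44 TPM in PRAKO WT (−0.46 ± 0.08, limma adjusted p = 0.00725). The second was Slc12a2, which takes up sodium, potassium and chloride together, with 10.8, 9.75 and 9.50 TPM in PRKO KO, against 15, 15.5 and 15.9 TPM in PRKO WT (−0.60 ± 0.08, limma adjusted p = 0.00373). Both had all KO libraries under all WT libraries. In PRAKO the potassium-chloride cotransporter Slc12a7 had 29.6, 27.4 and 31.7 TPM in KO, against 15.2, 14.7 and 18.6 TPM in WT (0.86 ± 0.11, limma adjusted p = 0.00136). The chloride-bicarbonate exchanger Slc4a3 had 31.8, 31 and 34.2 TPM in PRAKO KO, against 18.8, 14.9 and 20.3 TPM in PRAKO WT (0.84 ± 0.11, limma adjusted p = 0.00220). Both still rose with size factors, by 0.65 and 0.63, and both groups of libraries overlapped in PRKO.

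Metal carriers had 3 of 20 members lower in PRKO, beside 7.85% of all genes. They had 4 higher and 1 lower in PRAKO, beside 30% and 4.51% of all genes. With size factors PRAKO had 2 higher and 5 lower. Slc30a9, a zinc carrier, had 21.1, 19.7 and 18.4 TPM in PRKO KO, against 31.9, 31.2 and 36.4 TPM in PRKO WT (−0.74 ± 0.09, limma adjusted p = 0.00309), and was the 1 lower in PRAKO, with 20.8 ± 0.923 TPM in KO and 26.6 ± 0.948 TPM in WT (SD, n = 3 each, −0.35 ± 0.07, limma adjusted p = 0.00999). Slc31a2, a copper carrier of internal membranes, had 6.66 ± 0.622 TPM in PRKO KO and 12 ± 0.768 TPM in PRKO WT (SD, n = 3 each, −0.81 ± 0.09, limma adjusted p = 0.00242). Its neighbour on chromosome 4, Slc31a1, the copper importer of the cell surface 62171 bases away, had 14.1 ± 0.741 TPM in PRKO KO and 14.7 ± 0.205 TPM in PRKO WT and did not pass. The third was Slc41a3, a magnesium carrier, whose PRKO change of −0.79 ± 0.19 (limma adjusted p = 0.0455) did not pass with size factors (adjusted p = 0.0577) or without any 1 of 5 libraries, all but KO replicate 1 (adjusted p between 0.0841 and 0.127). The zinc carrier Slc39a7, which releases zinc from the endoplasmic reticulum and was the most abundant metal carrier, averaged 121 ± 10.6 TPM in PRKO KO and 135 ± 2.34 TPM in PRKO WT and passed in no strain.

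Among sugar carriers 1 of 29 tested passed higher and 2 lower in PRKO, beside 2.11% and 7.85% of all genes. In PRAKO 10 of 30 passed higher and 1 lower, beside 30% and 4.51% of all genes. With size factors PRAKO had 5 higher and 3 lower and PRKO 2 higher and 1 lower. Slc37a2, a sugar phosphate exchanger of the endoplasmic reticulum, had 6.93, 6.09 and 6.37 TPM in PRKO KO, against 4.19, 4.28 and 3.51 TPM in PRKO WT (0.63 ± 0.10, limma adjusted p = 0.00970), and 3.88, 4.43 and 4.53 TPM in PRAKO KO, against 2.09, 2.21 and 2.47 TPM in PRAKO WT (0.79 ± 0.11, limma adjusted p = 0.00264). It lies on chromosome 9 as Pgr does, 28.3 Mb away, and the 9 other members on that chromosome did not pass in any strain. Slc45a4 had 6.84, 6.37 and 5.76 TPM in PRKO KO, against 11.1, 10.9 and 11.8 TPM in PRKO WT (−0.79 ± 0.09, limma adjusted p = 0.00181), and passed lower in PRAKO too (−0.42 ± 0.08, limma adjusted p = 0.00915). Slc5a7, grouped here by its family but known as the choline carrier of nerve endings, was under the filter in PRKO. It had 5.29, 6.74 and 5.65 TPM in PRAKO KO, against 2.74, 3.37 and 3.88 TPM in PRAKO WT (0.74 ± 0.14, limma adjusted p = 0.00890), while its PRKO values were 0.422 to 0.622 TPM in KO, against 0.281 to 0.374 TPM in WT.

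Of the 28 carriers of organic ions, vitamins and nucleosides, 12 passed higher and 2 lower in PRAKO, against 30% and 4.51% of all genes, and with size factors 7 were higher and 2 lower. In PRKO 4 passed lower and 0 higher, against 7.85% and 2.11% of all genes, and 3 of the 28 were higher with size factors at an adjusted p of 0.05 (Slc29a4, Slc22a17 and the ascorbate carrier Slc23a2). All 3 Slc22 members rose in PRAKO. Slc22a5, the carnitine carrier, had 12.4, 11.8 and 12.9 TPM in PRAKO KO, against 6.54, 6.60 and 6.98 TPM in PRAKO WT (0.84 ± 0.08, limma adjusted p = 0.000359). Slc22a21, a related carnitine carrier whose gene starts 58158 bases further along chromosome 11, had 3.26, 3.26 and 3.69 TPM in PRAKO KO, against 1.87, 1.43 and 1.84 TPM in PRAKO WT (0.82 ± 0.13, limma adjusted p = 0.00394). With size factors these changes were 0.64 and 0.65. Slc23a2, which brings vitamin C into cells, had 90.9, 89.4 and 99.4 TPM in PRAKO KO, against 60.6, 61.2 and 62.2 TPM in PRAKO WT (0.60 ± 0.06, limma adjusted p = 0.000700), and 112, 79.1 and 100 TPM in PRKO KO, against 71.5, 72.1 and 61.0 TPM in PRKO WT (0.50 ± 0.14, limma adjusted p = 0.0780). Of the 3 lipid carriers, Slc27a3, an acyl-CoA synthetase of the fatty acid transport family, rose in PRAKO, with 10.7, 13 and 14.6 TPM in KO, against 6.96, 5.31 and 7.23 TPM in WT (0.92 ± 0.15, limma adjusted p = 0.00430). Its PRKO change of 0.69 ± 0.16 (limma adjusted p = 0.0446) did not pass without any 1 library, KO replicate 2 excepted (adjusted p between 0.0696 and 0.140). Neither phosphate carrier passed in any strain.

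In PRBKO 6 of 177 members passed at 0.05, 5 higher and 1 lower, against 3.48% of all genes (3.27% higher and 0.209% lower). They were Slc6a6, Slc25a30, Slc25a25, Slc5a7, Slc12a2 and, lower, Slc25a33. This count depended on the libraries and on the scaling. It was 96 without KO replicate 1, 2 without WT replicate 4, 1 without KO replicate 2 and 0 without any other, and of the 6 only Slc5a7 passed with size factors and only Slc25a33 with values rescaled to protein-coding genes. With size factors 5 members passed, 1 higher and 4 lower, and the lower ones were Slc16a6 (−0.69), Slc7a11 (−0.60), Slc38a4 (−0.87) and Slc25a42 (−0.53).

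Whether the KO effect differed between strains was tested as a contrast in a fit of all 18 libraries, for 176 members and 13442 genes in all. Between PRKO and PRBKO, 13 members differed (7.39%, against 3.89% of all genes, 3.77% lower and 0.119% higher), all with the lower value in PRKO. Between PRAKO and PRBKO 5 differed, 3 lower and 2 higher in PRAKO (2.84%, against 2.12% of all genes, 1.81% lower and 0.312% higher), and between PRKO and PRAKO 3 differed, all lower in PRKO (1.70%, against 0.565% of all genes, 0.536% lower and 0.0298% higher). At an adjusted p of 0.05 with no fold limit the counts were 70 (against 30.3% of all genes), 18 (6.3%) and 41 (16%). The median of all genes was −0.31 in both contrasts with PRKO, and the differences are to be read against it. With size factors 5 differed between PRKO and PRBKO, of which Slc7a11 and Slc25a33 were shared with the 13 and Slc18a2 (1.16), Slc27a3 (1.22) and Slc22a17 (1.04) were higher in PRKO, and 0 differed between PRKO and PRAKO. That count was also 0 without PRAKO KO replicate 4 or PRAKO WT replicate 2, and 1 without any of PRKO KO replicate 2, PRKO WT replicates 1 and 2, PRAKO KO replicate 2 and PRAKO WT replicate 1. Slc7a11 differed by −1.74 ± 0.22 between PRKO and PRBKO (limma adjusted p = 3.42e-05, and −1.43 with size factors), and Slc25a33 by −1.45 ± 0.18 (limma adjusted p = 3.10e-05, and −1.12 with size factors). Between PRAKO and PRBKO, where the all-gene median was 0.00, Slc25a33 differed by −1.46 ± 0.18 (limma adjusted p = 5.81e-05), Slc16a6 by −1.51 ± 0.20 (limma adjusted p = 0.000111) and Slc29a4 by 1.25 ± 0.19 (limma adjusted p = 0.000393). Slc6a6, which was lower in KO in PRAKO and higher in KO in PRBKO, differed by −1.10 ± 0.12 (limma adjusted p = 1.87e-05). This difference was under the fold limit with quantile normalization (−0.934) and with values rescaled to protein-coding genes (−0.998).

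**Figure D4:**
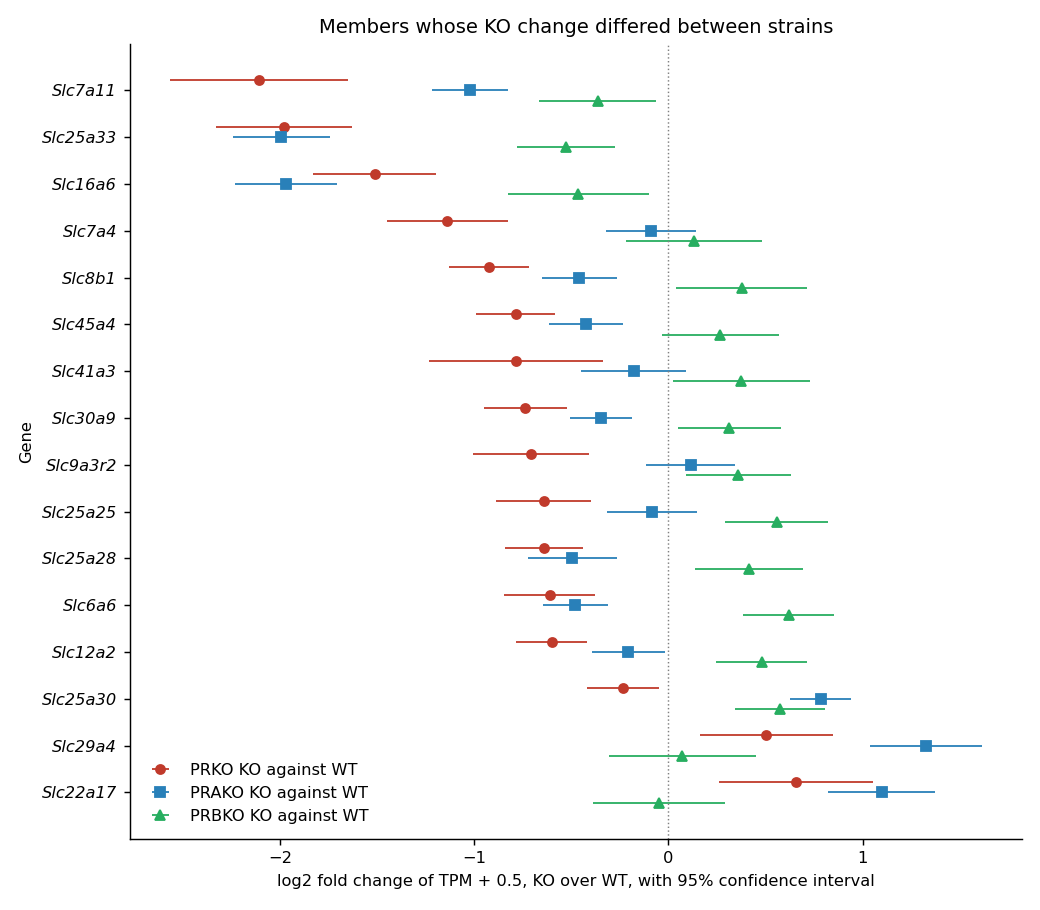
Log2 fold change of TPM + 0.5, KO over WT, with its 95% confidence interval in PRKO, PRAKO and PRBKO, for the 16 members whose KO effect differed between at least 1 pair of strains. Slc25a33 was at −1.98, −1.99 and −0.53 in the 3 strains, and Slc6a6 at −0.61, −0.48 and 0.62.

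Genes tied to these carriers were counted from lists drawn up by function. Of all genes, 2.11% passed higher at a limma adjusted p of 0.05 in PRKO, 30% in PRAKO and 3.27% in PRBKO. Those that passed lower made up 7.85%, 4.51% and 0.209%. Genes called, with the fold limit, made up 2.14%, 2.05% and 0.133%. Of 18 carrier partners and regulators, 14 were tested and 0 were called in any strain, with 0, 4 and 3 passing at 0.05 in PRKO, PRAKO and PRBKO, all of them higher. Among them Sgk1, a kinase that holds many carriers at the cell surface, had 354 ± 25.8 TPM in PRAKO KO and 183 ± 4.73 TPM in PRAKO WT (0.94 ± 0.07, limma adjusted p = 0.000121), and 143 ± 40.7 TPM in PRKO KO and 167 ± 28 TPM in PRKO WT (SD, n = 3 each, limma adjusted p = 0.542). Of 37 carriers without an Slc symbol, 25 were tested in PRKO and PRAKO and 26 in PRBKO. At 0.05, 0 passed higher and 3 lower in PRKO, 9 higher and 2 lower in PRAKO, and 1 higher and 0 lower in PRBKO. In PRKO and in PRAKO 1 was called, Slco2a1, the prostaglandin carrier. It had 40.4 ± 4.68 TPM in PRKO KO and 99.8 ± 10.3 TPM in PRKO WT (−1.29 ± 0.11, limma adjusted p = 0.000783), and 24.8 TPM in PRAKO KO and 119 TPM in PRAKO WT (−2.24 ± 0.06, limma adjusted p = 1.94e-06). Slco2a1 is also expressed by endothelium, and endothelial markers summed to 57.9 to 75.2 TPM in PRKO KO, against 79.4 to 84.4 TPM in PRKO WT, and to 23.7 to 29.5 TPM in PRAKO KO, against 45.1 to 51.3 TPM in PRAKO WT, with 0 of 9 at 0 throughout. In PRKO 1 of 9 tested endothelial markers passed higher and 2 lower at 0.05, beside 2.11% and 7.85% of all genes. In PRAKO 0 of 7 tested passed higher and 1 lower, beside 30% and 4.51%. The part of these markers in any change was not tested.

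Slc7a11 is a known target of ATF4, the factor of the amino acid response, and of NRF2, the factor of the oxidative stress response. Of 20 genes of the amino acid response, 18 were tested in PRKO, 17 in PRAKO and 20 in PRBKO. In PRKO 1 was called lower (Ddit4, −1.35), in PRAKO 1 was called lower (Vldlr, −1.32) and 0 were called higher in any strain. At an adjusted p of 0.05 they numbered 0 higher and 3 lower in PRKO, 6 higher and 1 lower in PRAKO and 4 higher and 0 lower in PRBKO, and their median, less that of all genes, came to −0.03 (PRKO), −0.10 (PRAKO) and 0.11 (PRBKO). Of all genes, 2.11% passed higher and 7.85% lower in PRKO, 30% and 4.51% in PRAKO, and 3.27% and 0.209% in PRBKO. Genes called made up 2.14% of all genes in PRKO, 2.05% in PRAKO and 0.133% in PRBKO. Of 15 genes of the NRF2 response, 14 were tested and 1 was called in PRKO and in PRAKO, lower in both. This was Gclc, the catalytic chain of the enzyme that joins glutamate and cysteine in the first step of glutathione synthesis. It had 27.0 TPM in PRKO KO and 69.0 TPM in PRKO WT (−1.34 ± 0.08, limma adjusted p = 0.000252), and 43.3 TPM in PRAKO KO and 89.5 TPM in PRAKO WT (−1.03 ± 0.09, limma adjusted p = 0.000199). Gclm, its regulatory chain, had 14.8 TPM in PRKO KO and 22.2 TPM in PRKO WT (−0.57 ± 0.07, limma adjusted p = 0.00437). For the NRF2 list this median came to 0.09 (PRKO), 0.03 (PRAKO) and 0.14 (PRBKO). At an adjusted p of 0.05 this list had 0 higher and 2 lower in PRKO and 7 higher and 1 lower in PRAKO. In PRBKO it had 3 higher and 0 lower. The 1 lower in PRAKO was Gclc, so Gclm did not pass lower there.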

How the data were processed

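Total RNA libraries of granulosa cells were quantified by the authors with Salmon against a mouse transcriptome, and the deposited values are TPM per RefSeq transcript, in 1 table per strain. Versions of FastQC, Salmon, limma and edgeR, the tools in the submitters' notes, are not given in the sources used here. TPM scales every library to 1000000 and keeps no depth. The study gives a range of depth for its granulosa cell libraries, but depth per library is unknown and no counting interval can be given. Of 42251 transcripts, 42072 matched the RefSeq annotation (GRCm38.p6) and were summed to 24963 genes.

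Values were set to log2(TPM + 0.5), a scale that understates changes of low genes, and each strain was tested with limma 3.58.1 in R 4.3.3. The prior had a trend, and Benjamini-Hochberg adjustment ran over all genes at 1 TPM or more in at least 3 of 6 libraries. The study's limma-voom needs counts and was not used. Strain differences were contrasts in 1 fit of all 18 libraries. Python 3.11.15 and pandas 2.3.3 were used for the rest, and the fits were tested on simulated data. Alternatives were 2 other pseudocounts, 2 filters, 3 scalings, a prior without trend, 1 fit of all libraries, a replicate block, no fold limit and each library left out. Leaving out libraries or rescaling without the fold limit was added after seeing the data.

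Named members were those called, filled up to 10 per direction (5 in PRBKO) by smallest p at a log2 change of 0.6 or more, the 10 highest, the 5 smallest p of each strain difference, the highest of each class, 3 members that the study lists for PRKO and PRAKO from these same samples and those next to the limit of 2 TPM. Others were named after their values were seen, as part of a count or beside a relative. Members and lists were chosen with earlier results of these data known.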

Additional observations from a re-analysis of the deposited data

Results flagged for a closer look

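The KO effect on 16 solute carrier genes differed between strains by the contrast itself (adjusted p of at most 0.01 in limma and a difference of at least 1 on the log2 scale), which gave 21 differences. Between PRKO and PRAKO the difference in log2 fold change was −1.02 for Slc25a30, −1.05 for Slc7a4 and −1.09 for Slc7a11, beside an all-gene median of −0.31, and none of these was called with size factors. Between PRAKO and PRBKO it was −1.10 for Slc6a6, −1.46 for Slc25a33, −1.51 for Slc16a6, 1.25 for Slc29a4 and 1.15 for Slc22a17, beside an all-gene median of 0.00. The Slc6a6 difference was under the fold limit with quantile normalization (−0.934) and protein-coding rescaling (−0.998).

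Between PRKO and PRBKO, where the all-gene median was −0.31, the difference was −1.74 for Slc7a11, −1.45 for Slc25a33, −1.30 for the mitochondrial calcium exchanger Slc8b1, −1.27 for Slc7a4, −1.23 for Slc6a6 and −1.20 for Slc25a25. It was −1.16 for Slc41a3, −1.08 for Slc12a2, −1.07 for the scaffold gene Slc9a3r2, −1.06 for Slc25a28, −1.05 for Slc45a4, −1.05 for Slc30a9 and −1.05 for Slc16a6. With size factors only Slc7a11 (−1.43) and Slc25a33 (−1.12) of these 13 were still called. The strains were normalized in separate tables, so strain and table cannot be told apart.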

How the results depend on the processing

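Of 818 values of single members under the alternatives, over 47 results, 757 kept their direction and their side of the limits, 54 no longer passed, 7 newly passed and 0 changed sign. The 757 include members not called in the main fit that stayed uncalled, so they do not show how steady the calls were. The number of members called in PRKO was 5, was 3 with a mean of at least 5 TPM, was 30 at an adjusted p of 0.05 with no fold limit and lay between 4 and 5 without single libraries. In PRAKO it was 5, was 65 with no fold limit and lay between 3 and 6 without single libraries. In PRBKO it was 0, was 6 with no fold limit and was 0 without any single library.

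The number of differences between PRKO and PRAKO was 3, was 1 with a pseudocount of 1 or no filter, was 0 with size factors, quantile normalization or protein-coding rescaling, was 41 with no fold limit and lay between 0 and 3 without single libraries. Between PRAKO and PRBKO it was 5, was 18 with no fold limit and lay between 4 and 6 without single libraries. Between PRKO and PRBKO it was 13, was 5 with each of the 3 scalings, was 70 with no fold limit and lay between 10 and 14 without single libraries. With no fold limit the members higher and lower in KO numbered 5 and 23 in PRKO, 27 and 22 in PRAKO and 0 and 6 in PRBKO with protein-coding rescaling, and 13 and 24, 31 and 25 and 1 and 3 with quantile normalization. The causes were not tested beyond the shift of the all-gene median that the scalings remove.

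Samples of the same replicate number did not deviate together (correlations between −0.15 and 0.148), so the numbers were not read as pairs. With the replicate number as a block the calls were 5 in PRKO, 6 in PRAKO and 0 in PRBKO, and the differences were 0 between PRKO and PRAKO, 1 between PRAKO and PRBKO and 9 between PRKO and PRBKO. Only replicates 2 and 3 in PRAKO and replicates 1 and 2 in PRBKO occurred in both KO and WT. The blocked KO effects of these strains rest on those libraries alone. TPM keeps no depth, so the reads behind members of 1 to 3 TPM are not known.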
